A study of Mus musculus with 2 samples.

Results

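Oxidative phosphorylation is carried by 5 protein complexes of the inner mitochondrial membrane, and the genes described here are the nuclear genes that encode their subunits. They were chosen by name: protein-coding genes whose symbol begins with Ndufa, Ndufb, Ndufc, Ndufs or Ndufv and a number, the genes Sdha to Sdhd, and genes whose symbol begins with Uqcr, with Cox4 to Cox8 or with Atp5. Of 43346 genes in the deposited tables, 21474 were protein-coding with a symbol, and 84 of these met the rule. Complex I had 37 of them, complex II 4, complex III 8, complex IV 18 and complex V 17.

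PolyA-selected RNA of 2 libraries was read as stranded pairs, from tissue of adult C57BL/6J mice, a common inbred strain, at 8 weeks of age. Both belong to 1 group, labelled large intestine, and each pools littermates of both sexes, with no treatment or engineered allele in the labels. The replicates are separate biosamples recorded under 1 donor entry, so the spread between them may be partly technical. With 1 group no conditions can be compared, and replicate 2 is set against replicate 1 without a p-value. An error after ± is the SD of the 2 libraries, and where a level is given as a pair of values, replicate 1 comes first.

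Complexes I, III and IV pass electrons from NADH to oxygen and pump protons, complex II feeds in electrons from succinate, and complex V, the ATP synthase, uses the proton gradient to make ATP. Complexes I, III, IV and V each join subunits from the nucleus with subunits encoded by the mitochondrial genome, while all subunits of complex II are nuclear. In the gut, absorptive epithelium and smooth muscle both rely on this pathway, and several complex IV subunits have alternative paralogs known from heart, skeletal muscle, brown fat or testis.

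Depth was 50189619 expected counts in replicate 1 and 58233142 in replicate 2. The tissue label was checked against marker genes: all 9 epithelial and all 8 smooth muscle markers were detected, but only 3 of 8 colonocyte markers, while all 10 markers of small intestine enterocytes and all 7 of Paneth cells were present. Car1, a carbonic anhydrase abundant in colon epithelium, was at 0.23 and 0.27 TPM, so the tissue is given here as a label. The epithelial list summed to 11204 and 9571 TPM and the colonocyte list to 1360 and 1570 TPM. Most of the colonocyte sum came from Guca2a, at 1199 and 1407 TPM. The small intestine enterocyte list summed to 10375 and 9137 TPM, and the Paneth list to 12731 and 20885 TPM. The libraries were not alike in enterocyte markers: 7 of the 10 were at least 2-fold lower in replicate 2, among them the lactase gene Lct (named after its values were seen) at 152 and 9.94 TPM, and 2 were at least 2-fold higher, among them Fabp6, an ileal bile acid binding protein, at 477 and 5279 TPM. In whole tissue, fewer cells of a type and less RNA per cell cannot be told apart.

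The promoters of the members carried short motifs of factors known to act on respiratory genes, and the sites with the longest motifs are shown first because they mark which subunit genes share them. Promoters of 300 bases (250 before to 50 after the start) came from RefSeq on build GRCm38.p6 and were matched for 66 of the 84 members. These 66 had 71 promoters, and a gene was counted when any of its promoters held the motif. The palindrome GCGCATGCGC, the half-site GCGCA followed by its reverse complement, is the site of nuclear respiratory factor 1 (NRF1). It was present in 5 of the 66 members (7.58%), against 1.07% of 27025 genes with a RefSeq promoter. Among the 10015 such genes at a mean of 1 TPM or more the share was 2.21%. These 5 sites, with 10 bases on each side and the motif in capitals, read 5′ to 3′ along the gene:

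Cox6a1 (chr5:115349101-115349130, minus strand): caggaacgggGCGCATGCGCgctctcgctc

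Ndufa11 (chr17:56717692-56717721, plus strand): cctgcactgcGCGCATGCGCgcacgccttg

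Atp5k (chr5:108434430-108434459, minus strand): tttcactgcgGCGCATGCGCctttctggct

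Atp5g2 (chr15:102671070-102671099, minus strand): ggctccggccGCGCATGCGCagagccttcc

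Uqcrc1 (chr9:108936668-108936697, plus strand): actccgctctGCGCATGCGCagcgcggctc

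Positions count from the RefSeq start whose window held the match, which need not be the outermost start of the gene. The first base of the motif lay 162 bases before the start in Cox6a1, 60 before in Ndufa11, 50 before in Atp5k and 42 before in Atp5g2. The Atp5g2 site lies inside the annotated gene, which begins at base 102672352 on the minus strand. In Uqcrc1 it lay at base 31 after the start. These genes cover complexes I, III, IV and V, and their mean levels ran from 71.4 TPM for Ndufa11 to 2605 TPM for Cox6a1.

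The motif AAGATGGCG, bound by the zinc finger factor YY1, was present in 7 of the 66 members (10.6%). The share was 1.64% of all genes with a promoter and 3.51% of those at a mean of 1 TPM or more. Of the 7 genes, 5 encode complex I subunits and the other 2 encode peripheral stalk or membrane subunits of complex V. The sites are shown because 6 of the 7 fall close together just after the start, with the motif in capitals:

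Ndufc1 (chr3:51408914-51408943, minus strand): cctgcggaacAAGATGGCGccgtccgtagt

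Atp5j2 (chr5:145191499-145191528, minus strand): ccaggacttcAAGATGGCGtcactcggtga

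Ndufs7 (chr10:80249463-80249492, plus strand): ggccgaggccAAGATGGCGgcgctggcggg

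Ndufa9 (chr6:126849096-126849125, minus strand): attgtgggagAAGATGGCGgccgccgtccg

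Ndufs6 (chr13:73328433-73328462, minus strand): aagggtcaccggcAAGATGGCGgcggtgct

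Ndufs4 (chr13:114388045-114388074, minus strand): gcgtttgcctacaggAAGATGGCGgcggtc

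Atp5j (chr16:84835045-84835074, minus strand): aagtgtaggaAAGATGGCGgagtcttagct

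In the first 6 the motif began between bases 23 and 36 after the start, and in Atp5j it began 88 bases before. Atp5j has more than 1 RefSeq start, and this site lies inside the annotated gene, which begins at base 84835625 on the minus strand. All 7 matches were on the sense strand, although both strands were searched. The motif contains the letters ATG, and whether these are the start codons of the genes was not tested. No gene held both the NRF1 palindrome and this motif.

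The other motifs searched had 6 to 8 letters. The ETS motif CCGGAAG, read by the GABP complex, was in 16 of 66 members (24.2%), 9.93% of all genes with a promoter and 19.5% of the expressed ones. The NRF1 core TGCGCA was in 17 (25.8%, 8.79% and 15.3%), 10 of them in complex I genes. It can overlap the end of the longer palindrome. The motif AAGGTCA of the estrogen-related receptors was in 8 (12.1%, 5.38% and 4.04%), among them Atp5e, Atp5g3, Atp5k and Atp5l of complex V. The cyclic AMP response element TGACGTCA was in 4 (6.06%, 2.03% and 3.36%), namely Ndufa10, Ndufa11, Ndufb2 and Uqcrfs1. The SP1 box GGGCGG was in 26 (39.4%, 38.2% and 67.5%) and the TATA box TATAAA in 7 (10.6%, 15.7% and 9.09%). Median GC content was 57.3% over the member promoters, 52.7% over all and 60.3% over those of expressed genes. A match describes the letters in these windows and no binding was measured.

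As a set, the members were abundant. Their summed TPM (a level corrected for transcript length and for the total of the library) was 33483 and 33057, or 3.35% and 3.31% of all TPM. In expected counts they held 855520 and 1078607, or 1.76% and 1.94% of the counts on annotated genes. A gene was called detected when each library had 1 TPM or more, and 81 of 84 members were, against 56.2% of protein-coding genes. At 100 TPM or more there were 58 members, against 4.47% of protein-coding genes, and at 1000 TPM or more there were 8, against 0.410%. The 3 members below the limit were complex IV paralogs: Cox6a2, at 1.27 and 0.89 TPM, and Cox7b2 and Cox8c, with 0 counts in both.

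Complex V held the largest share of the summed TPM at 31.7% ± 0.62 (SD, n = 2), followed by complex IV at 29.7% ± 0.49, complex I at 20.7% ± 0.18, complex III at 14.9% ± 0.14 and complex II at 3.01% ± 0.20. The order was the same in both libraries. Complex I has the most genes and the lowest median gene level, at 128 TPM. The medians were 265 TPM in complex II, 342 TPM in complex IV, 370 TPM in complex V and 407 TPM in complex III. Ndufa4 and its paralog Ndufa4l2 carry complex I names, while the Ndufa4 protein is now assigned to complex IV. Counted there, they moved complex I to 18.8% and complex IV to 31.6%, and complexes IV and V then differed by less than the spread between the libraries.

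**Figure D1:**
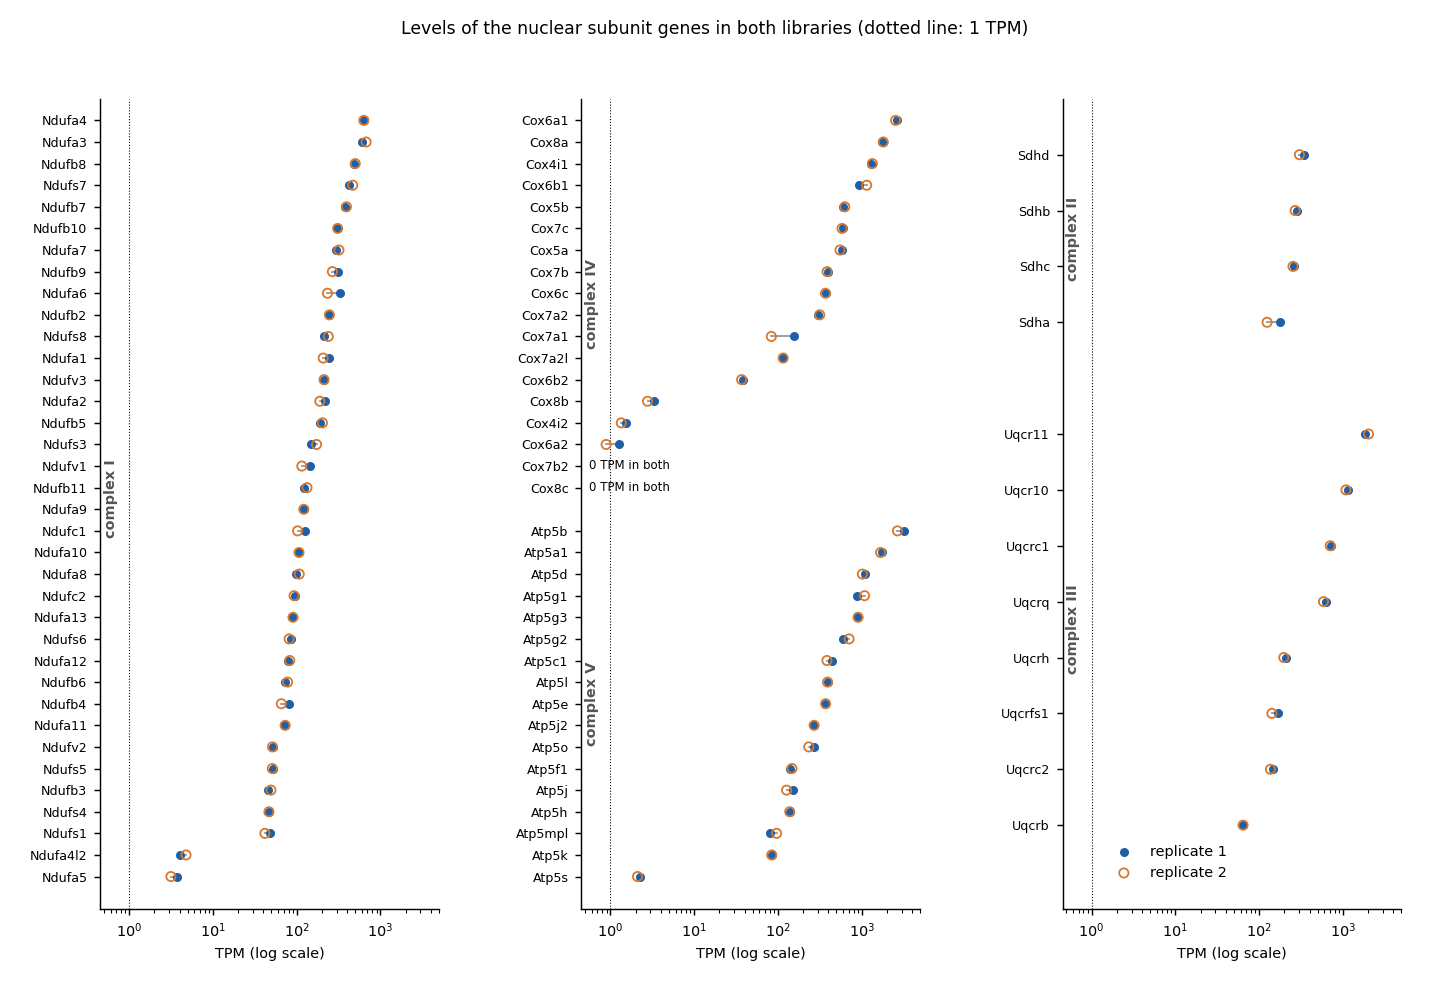
Level of 83 of the 84 genes in TPM on a log axis, 1 row per gene, ordered within each complex, with replicate 1 as filled and replicate 2 as open circles. Most pairs of circles overlap; Ndufa5, Ndufa4l2, Atp5s and several complex IV paralogs stand at 5 TPM or below while the other genes lie above 30 TPM.

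Within complex I, Ndufs7 had the highest level of the core genes of the Q module, which reduces ubiquinone, at 418 and 467 TPM. Ndufs8 followed at 212 and 238 TPM. Ndufs3 was at 150 and 173 TPM. The 3 core genes of the N module, which oxidises NADH, summed to 244 and 208 TPM. Ndufv1, the flavin-binding subunit, led them at 143 and 115 TPM. The iron-sulfur subunit genes Ndufv2, at 52.5 and 51.4 TPM, and Ndufs1, at 48.3 and 41.8 TPM, were each near 50 TPM. Thus core genes whose proteins are present in equal numbers in the complex differed 9.8-fold in mean level, from Ndufs1 to Ndufs7, or 19.1-fold with coding transcripts only.

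The 28 accessory genes of complex I summed to 5095 and 5039 TPM. Ndufa3, a small membrane-arm subunit, was the highest at 596 and 675 TPM, and Ndufb8 of the distal membrane arm was at 480 and 500 TPM. Ndufb7 was at 380 and 393 TPM, Ndufb10 at 305 and 309 TPM. The 10 genes of the distal membrane arm ran from Ndufb3 at 45.5 and 49.3 TPM upward to Ndufb8. The 9 of the proximal arm ran from Ndufs5, at 52.1 and 51.2 TPM, to Ndufa3. The 7 accessory genes of the N module ran from Ndufs4, at 46.6 TPM in both libraries, to Ndufa7 at 291 and 320 TPM.

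Ndufa5 stood far below the rest of complex I. This Q module accessory gene (ENSMUSG00000023089.8, chromosome 6, 24518666 to 24528013, mm10) was at 3.75 and 3.15 TPM, from 107 and 99 expected counts. Ndufa9, the other accessory gene of that module, was at 121 and 122 TPM, 32.2-fold and 38.6-fold higher. Ndufs1, the next lowest subunit gene of complex I in mean level apart from Ndufa4l2, was 12.9-fold and 13.3-fold above Ndufa5. No other annotated transcript shared a stretch of 76 bases, the read length, with Ndufa5. Its protein-coding transcript held 95.8% of its TPM in replicate 1 and 71.9% in replicate 2.

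Complex II was the most even complex, with a 2.1-fold range between its highest and lowest gene. Sdhd, a membrane anchor, was at 340 and 303 TPM. Sdhb, the iron-sulfur subunit, was at 280 and 269 TPM. The other anchor, Sdhc, was at 258 and 254 TPM. Sdha, the flavoprotein that oxidises succinate (ENSMUSG00000021577.9, chromosome 13, 74322254 to 74350280), was the lowest and the most variable, at 177 and 125 TPM.

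Complex III ranged 30.2-fold. The small subunit genes Uqcr11, at 1855 and 2028 TPM, and Uqcr10, at 1147 and 1090 TPM, were the highest. Uqcrc1, a core protein, was at 723 and 707 TPM, whereas its partner Uqcrc2 was at 147 and 137 TPM. Uqcrq was at 635 and 587 TPM, Uqcrh at 207 and 197 TPM. Uqcrfs1, the Rieske iron-sulfur protein, was at 169 and 142 TPM. Uqcrb was the lowest at 64.0 and 64.4 TPM, so Uqcr11 exceeded it 29.0-fold and 31.5-fold. Cyc1, the cytochrome c1 gene that the name rule leaves out, was at 624 and 598 TPM.

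In complex IV the ubiquitous subunit forms were high. Cox6a1 (ENSMUSG00000041697.8, chromosome 5, 115345642 to 115348981) was at 2668 and 2543 TPM. Cox8a was at 1740 and 1815 TPM. Cox4i1, the largest nuclear subunit, was at 1307 and 1343 TPM. Cox6b1 was at 929 and 1149 TPM. Cox5b, Cox7c, Cox5a, Cox7b, Cox6c and Cox7a2 followed, with mean levels from 618 TPM for Cox5b down to 309 TPM for Cox7a2. Cox7a2l, which helps join complexes III and IV into supercomplexes, was at 116 TPM in both.

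The tissue-restricted paralogs were mostly near the limit of detection. Cox4i2, known from lung and hypoxic cells, was at 1.54 and 1.35 TPM, and Cox4i1 held 99.9% ± 0.012 (SD, n = 2) of the pair. Cox6a2, the heart and skeletal muscle form, was 2100-fold and 2860-fold below Cox6a1. Cox8b, from the same tissues and brown fat, was at 3.31 and 2.78 TPM, or 22 and 24 counts, and Cox8a was 526-fold and 653-fold higher. Cox7b2 and Cox8c, known from testis, had 0 counts. Set against a floor of 3 counts per library, Cox7b was at least 1942-fold higher than Cox7b2 and Cox8a at least 6777-fold higher than Cox8c in replicate 1. These bounds cover counting error only.

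Cox6b2 and Cox7a1 departed from this pattern. Cox6b2, a form best known from testis, was at 37.8 and 36.9 TPM, and held 3.91% and 3.11% of the COX6B pair. None of 8 male germ cell markers was detected, and their summed level was 0.15 and 0.98 TPM. Cox7a1, the heart, skeletal muscle and brown fat form (ENSMUSG00000074218.2, chromosome 7, 30184144 to 30186078), was at 155 and 83.5 TPM, from 1043 and 731 counts. It held 33.9% of the COX7A pair in replicate 1 and 20.9% in replicate 2, while Cox7a2 stayed at 303 and 316 TPM. Brown adipocyte markers were 0 of 4 detected, with Elovl3 at 0 and Ucp1 at 0.03 and 0.10 TPM. Striated muscle markers were 3 of 12 detected, with a summed level of 38.4 and 74.9 TPM. Smooth muscle markers were 8 of 8 detected and summed to 3248 and 3806 TPM, pericyte markers 6 of 7 with 79.9 and 71.6 TPM, and white adipocyte markers 5 of 5 with 148 and 81.6 TPM. Without Cidec, a lipid droplet gene at 112 and 40.2 TPM, the other 4 white adipocyte markers summed to 36.7 and 41.5 TPM. The part of these cell types in the Cox7a1 level was not tested.

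The promoters of the COX8 paralogs are shown because the genes differ over 500-fold in level. Each stretch holds the 100 bases before the annotated start, and none of the motifs searched lies whole within it, so no base is in capitals:

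Cox8a (chr19:7217617-7217716, minus strand): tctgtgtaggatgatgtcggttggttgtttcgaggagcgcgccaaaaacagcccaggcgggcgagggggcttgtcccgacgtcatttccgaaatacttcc

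Cox8b (chr7:140900447-140900546, minus strand): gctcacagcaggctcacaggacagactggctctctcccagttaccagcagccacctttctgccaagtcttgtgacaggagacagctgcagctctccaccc

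Their GC content was close, at 57.0% for Cox8a and 59.0% for Cox8b. Over the full 300 bases the Cox8a promoter held 19 CG dinucleotides and that of Cox8b 2. The COX7B pair ran the other way, with 5 in the promoter of Cox7b and 10 in that of the undetected Cox7b2.

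**Figure D2:**
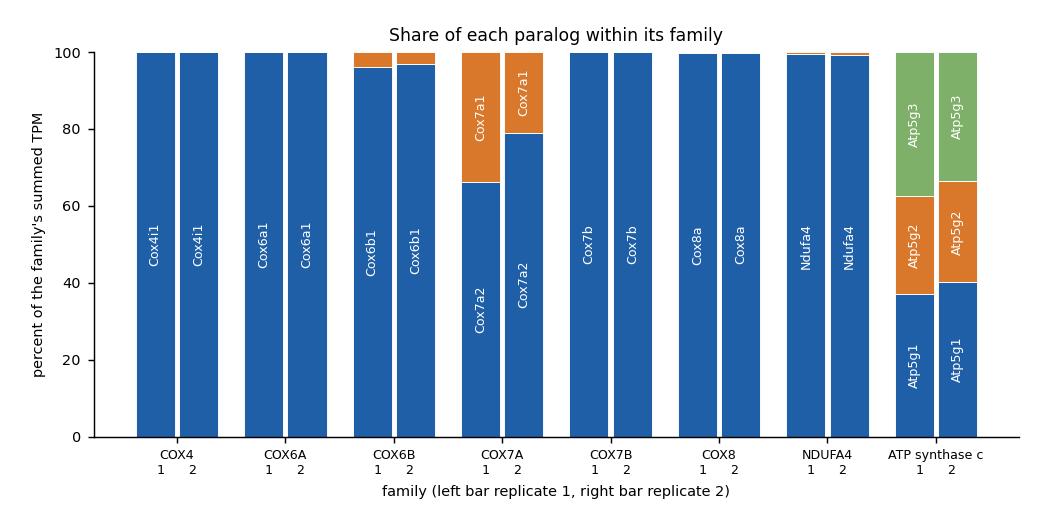
Share of each paralog in the summed TPM of its family, in percent, with the left bar for replicate 1 and the right bar for replicate 2. A single paralog fills almost the whole bar in 6 families, Cox7a1 takes 33.9% and 20.9% of COX7A, and the ATP synthase c genes divide theirs in 3.

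By the level over all transcripts, complex V was led by the catalytic F1 sector. Atp5b, the catalytic beta subunit (ENSMUSG00000025393.8, chromosome 10, 128083273 to 128090391), had the highest TPM of all 84 genes, at 3228 and 2675. Atp5a1, the alpha subunit, was at 1737 and 1685 TPM. Summed over all transcripts, the central stalk genes were lower: Atp5d at 1097 and 1021 TPM, Atp5c1 at 444 and 385 TPM, Atp5e at 367 and 372 TPM. The enzyme holds several alpha and beta subunits for each subunit of the central stalk, and Atp5b exceeded Atp5e 8.78-fold and 7.20-fold. Less than 50% of the Atp5b and Atp5a1 level was assigned to coding transcripts. With coding transcripts only, Atp5b exceeded Atp5e 2.27-fold and 2.02-fold, and Atp5d, at 1097 and 1021 TPM, lay above both Atp5b and Atp5a1.

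The membrane c ring is made from 3 genes that encode the same mature protein. Atp5g1 was at 878 and 1084 TPM. Atp5g3 was at 886 and 908 TPM. Atp5g2 was at 603 and 708 TPM. Their shares were 38.6% ± 2.16, 35.5% ± 2.69 and 25.9% ± 0.53 (SD, n = 2). Atp5g3 was slightly above Atp5g1 in replicate 1, and Atp5g1 was the higher in replicate 2. The peripheral stalk and membrane genes were lower, from Atp5k, at 85.8 and 84.4 TPM, to Atp5l, at 393 and 392 TPM. Atp5s, a coupling factor rather than a structural subunit, was at 2.29 and 2.11 TPM.

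Most members had 1 dominant transcript. There were 54 members with several annotated transcripts and a mean TPM no lower than 5, and 53 of them had the same most abundant transcript in both libraries, against 88.3% of such protein-coding genes. In 30 of them that transcript held 90% or more, against 22.8%. In 5 of the 54 the most abundant transcript of replicate 1 was not annotated as protein-coding, against 13.5%. Ndufs3 was the member whose most abundant transcript differed: its coding transcript Ndufs3-201 held 55.1% in replicate 1 and 46.6% in replicate 2, beside 37.2% and 47.5% for the noncoding Ndufs3-206.

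In 5 members the protein-coding transcripts together held less than 50% of the gene in both libraries, against 11.6% of such genes: Atp5b, Atp5a1, Ndufb10, Ndufa10 and Ndufs1. For Atp5b, coding transcripts came to 827 and 746 TPM. The retained-intron transcript Atp5b-205 was at 1157 and 1227 TPM, and the short noncoding Atp5b-207, of 343 bases, at 1143 and 567 TPM. For Atp5a1, coding transcripts came to 602 and 529 TPM beside 1083 and 1087 TPM for the retained-intron Atp5a1-203. Ndufb10 and Ndufa10 each had a retained-intron transcript above the coding one. How reads are divided between overlapping transcripts of a gene is an estimate, and the share of unspliced RNA was not tested.

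With coding transcripts only, complex IV held the largest share, at 33.6%, and complex V 24.7%. Complex I held 21.9%, complex III 16.5% and complex II 3.40%. Cox6a1 then had the highest level of all members, at 2629 and 2500 TPM, while Atp5b, at 786 TPM ± 57.4 (SD, n = 2), lay below Atp5g3 at 887 ± 15.5 TPM.

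**Figure D3:**
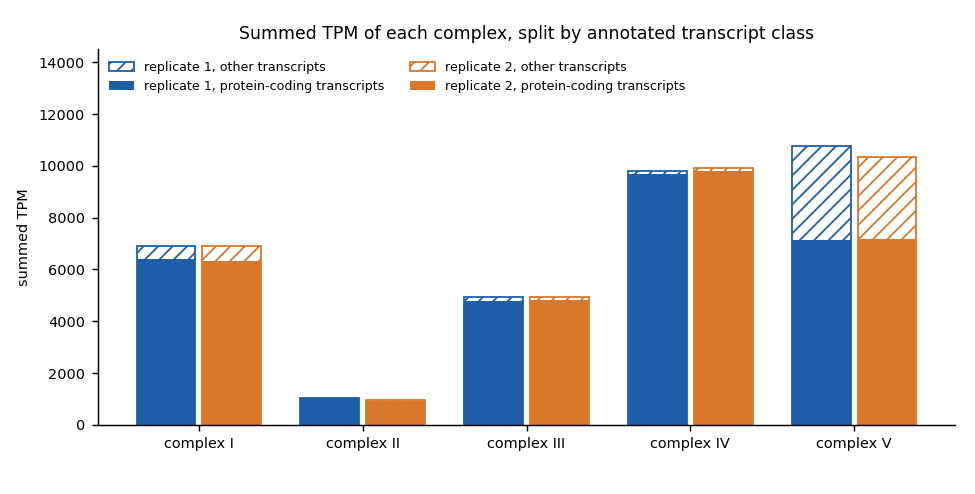
Summed TPM of each complex in replicate 1 (blue) and replicate 2 (orange), with protein-coding transcripts as filled bars and all other annotated transcripts as hatched parts on top. Complex V loses the most when other transcripts are left out, from 10758 to 7158 TPM in replicate 1, and falls below complex IV.

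Near-identical gene copies limit the values of some members. Of the 84 members, 22 shared at least 1 stretch of 76 bases with another annotated gene (26.2%, against 29.3% of protein-coding genes), and 20 with a pseudogene (23.8%, against 11.2%). In 12 the pseudogene was itself listed at a mean of 1 TPM or more. Ndufb4 was at 82.0 and 65.6 TPM, while its processed pseudogene Ndufb4c on chromosome 15 was listed 3.63-fold and 3.86-fold higher, at 298 and 253 TPM. Ndufa12 was at 78.7 and 82.7 TPM, while its copy Gm15920 on chromosome 5 was listed at 180 and 305 TPM. Reads of these pairs may have been divided between parent and copy, so both levels are uncertain. Gm12338, a copy of Cox7c, was listed at 1556 TPM in replicate 1 from 75.6 counts and at 0 TPM in replicate 2 from 124 counts, because its effective length was 1.1 and 0 bases.

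Between the libraries the members differed little. Ratios are given as log2 of (TPM + 1) in replicate 2 over replicate 1 for genes at a mean of 1 TPM or more, a scale that understates the difference of low genes. None of 82 members was 2-fold apart, against 5.64% of 13512 genes, of which 4.46% were higher in replicate 1 and 1.18% higher in replicate 2. At 1.3-fold, a limit chosen after seeing the data, 3 of 82 were apart, against 34.0%. All 3 were lower in replicate 2: Cox7a1 at -0.88, Sdha at -0.51 and Ndufa6, an accessory gene of the matrix arm of complex I, at -0.51. Ndufa6 was at 332 and 233 TPM. Among genes at a mean of 100 TPM or more, 0 of 60 members were 2-fold apart, against 9.32%, and 3 of 60 were 1.3-fold apart, against 32.7%.

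The interquartile range of the log2 ratio was 0.17 over the members and 0.49 over all genes. The median ratio was -0.02 over the members and -0.15 over all genes, and 47 of 82 members were lower in replicate 2, against 66.5% of all genes. In counts scaled with TMM, which trims extreme genes, the median was 0.01 over all genes and 0.14 over the members. These counts also lack the correction for effective length that TPM has, and FPKM gave 0.001 and 0.15. After TMM, 18 members were lower in replicate 2, against 48.5% of all genes, and 64 were higher. All 29 members that changed sign went from lower to higher, the direction in which the median of all genes moved. At 1.3-fold, 5 of 82 members were then apart, against 29.8%. Cox7a1 was lower at -0.68, and Cox6b1 at 0.48, Atp5g1 at 0.45, Atp5g2 at 0.40 and Atp5mpl at 0.40 were higher. Sdha at -0.36 and Ndufa6 at -0.33 kept their direction. Among genes at a mean of 100 TPM or more, 4 of 60 members were 1.3-fold apart after TMM, against 34.9%.

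**Figure D4:**
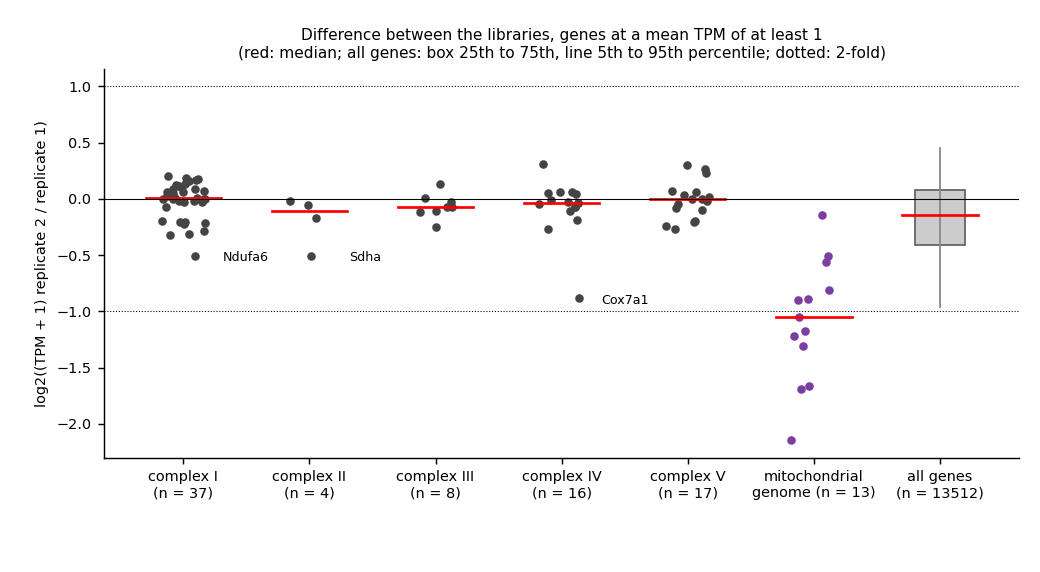
Log2 ratio of replicate 2 over replicate 1 for each member by complex, for the 13 protein-coding genes of the mitochondrial genome, and for all 13512 genes as a box (25th to 75th percentile) with a line from the 5th to the 95th. Red bars are medians and dotted lines mark 2-fold; the members lie close to 0 apart from Cox7a1, Sdha and Ndufa6, and the mitochondrial genes lie lower.

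The subunit genes of the mitochondrial genome, whose proteins join the nuclear ones in complexes I, III, IV and V, all had lower TPM in replicate 2. The 13 genes had a median log2 ratio of -1.05 (-0.87 after TMM, where mt-Nd3 alone was higher, at 0.03). Their summed TPM was 62662 and 30516. The nuclear genes of complexes I, III, IV and V summed to 32428 and 32107 TPM, which made the ratio of nuclear to mitochondrial 0.517 and 1.05. The TPM of mt-Atp8 rested on an effective length of 3.74 bases. Without mt-Atp8 and the short mt-Nd4l the ratio was 0.809 and 1.37. By complex, without these genes, it was 1.41 and 2.94 in complex I, 1.31 and 2.44 in complex III, 0.356 and 0.599 in complex IV, and 2.85 and 4.02 in complex V. Nuclear noncoding transcripts such as Malat1 and Rn7sk were also lower in replicate 2, with summed levels of 14991 and 8370 TPM for the 5 listed. The median log2 ratio was -1.43 over markers of small intestine enterocytes, -0.76 over those of plasma cells and -0.49 over those of epithelium. Of the 10 enterocyte markers, 2 were at least 2-fold higher in replicate 2. The plasma cell list summed to 55359 and 31131 TPM. Pericyte markers, at -0.37, and white adipocyte markers, at -0.14, were lower by less, against -0.15 over all genes. The lists of Paneth cells at 0.76, striated muscle at 0.75, goblet cells at 0.34 and colonocytes at 0.23 were higher. So were those of smooth muscle at 0.19, neurons at 0.18 and T cells at 0.06. The striated muscle median rests on 4 of 12 markers and the colonocyte median on 3 of 8, those at a mean of 1 TPM or more. In each of these lists 1 such marker was lower in replicate 2, with Slc26a3 of the colonocyte list at -1.02. The part of RNA quality, RNA fraction or these cell types in the mitochondrial difference was not tested.

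**Figure D5:**
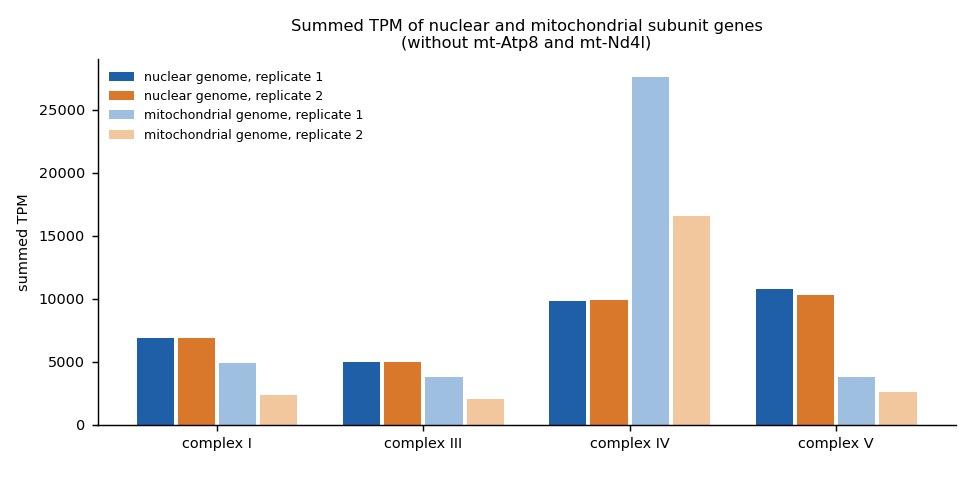
Summed TPM of the nuclear and mitochondrial subunit genes of the 4 complexes that have both, in each library, without mt-Atp8 and mt-Nd4l. Nuclear sums are nearly level between the libraries, whereas the mitochondrial sum of complex IV is 27610 TPM in replicate 1 and 16565 in replicate 2.

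Assembly factors, which build the complexes but are not part of them, were lower than the subunits. Of the 16 complex I factors, 15 were detected in both libraries. The factors of complex I at a mean of 1 TPM or more had a median of 9.03 TPM. Ndufaf8, at 40.0 and 45.6 TPM, and Ecsit, at 36.1 and 40.3 TPM, were the highest, and Nubpl was below 1 TPM. Of the 21 complex IV factors, 20 were detected and Pet117 was at 0 counts. Those at a mean of 1 TPM or more had a median of 17.5 TPM. The highest were Coa3 at 256 and 278 TPM and Cox14 at 210 and 201 TPM. Sco2, a copper chaperone, differed the most, at 105 and 56.3 TPM. Complex II factors numbered 3 of 4 detected, with Sdhaf3 below 1 TPM, and complex III factors 5 of 6, with Lyrm7 below. All 5 genes of the complex V list were detected, with Fmc1 the highest in mean level at 154 and 192 TPM. The list includes Atpif1, an inhibitor of ATP synthase reversal rather than an assembly factor, at 192 and 150 TPM. At a mean of 1 TPM or more there were 15, 3, 5, 20 and 5 genes in the lists of complexes I to V. None of these was 2-fold apart between the libraries, against 5.64% of all genes.

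Other genes of mitochondrial energy metabolism were listed for comparison. All 17 tricarboxylic acid cycle genes were detected, with a median log2 ratio of -0.32, and 13 were lower in replicate 2, against 66.5% of all genes. Mdh2, malate dehydrogenase, was at 1328 and 712 TPM. After TMM the median of this list was -0.04. The ADP/ATP carrier gene Slc25a5 was at 2059 and 1477 TPM, while Slc25a31, its testis form, was at 0.02 and 0 TPM. Ndufab1, the mitochondrial acyl carrier protein and a complex I subunit outside the name rule, was at 281 and 196 TPM.

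Among 18 regulators of mitochondrial biogenesis, 16 were detected and 13 of the 16 were lower in replicate 2, against 66.5% of all genes, with a median log2 ratio of -0.28 by TPM and -0.10 after TMM. The estrogen-related receptor gene Esrra was the highest, at 183 and 144 TPM, followed by Ppard at 114 TPM in both and Polrmt, the mitochondrial RNA polymerase, at 48.0 and 46.6 TPM. Ppargc1a and Hif1a were 2-fold lower in replicate 2, where the background is 4.46% of all genes. Ppargc1a, the PGC-1alpha coactivator, was at 8.31 and 1.15 TPM, with a log2 ratio of -2.11, or -1.60 after TMM. Hif1a, the hypoxia-inducible factor subunit, was at 11.8 and 5.23 TPM, with -1.04 by TPM and -0.69 after TMM, where it was less than 2-fold apart. Ppara, a lipid-sensing nuclear receptor at 9.66 and 4.34 TPM, had -0.997 by TPM, just under 2-fold, and -1.21 after TMM. These 3 were named after their values were seen. The log2 ratios of the subunit genes by TPM ran from -0.88 to 0.31.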

How the data were processed

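The tables cover 2 polyA RNA-seq libraries of 1 group. Per the file headers and the notes deposited with them, the authors quantified each library on build mm10 with annotation M4. No source used here names the aligner or quantifier. The authors deposited expected counts, which need not be whole, and TPM, which is scaled to 1 fixed total per library. The deposited FPKM, posterior mean values and counts served as alternatives. Each transcript's percent of its gene was used as deposited. Reads were stranded, from RNA longer than 200 bases, per the labels.

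Symbols, biotypes and positions came from GENCODE M21 on the same build, matched on the unversioned gene identifier. Ratios used a pseudocount of 1 and a minimum mean of 1 TPM, and detection needed 1 TPM in both libraries. Expected counts, rounded to whole numbers, were scaled with TMM (edgeR 4.0.16) and size factors (DESeq2 1.42.0) in R 4.3.3, with no test. Spreads within a complex cover members at a mean of 10 TPM or more. Motifs were searched as exact letters on both strands. Shared stretches were 76-base matches between GENCODE M21 transcripts, each in its own orientation, and for all protein-coding genes a hash of these windows gave the background. The genes whose promoters were not matched include Atp5a1, Atp5f1, Atp5mpl, Atp5s, Cox4i1, Cox4i2, Cox6a2, Cox6c, Cox8c, Ndufa2, Ndufa4l2, Ndufb9, Ndufs1, Sdhc, Uqcrb, Uqcrc2 and Uqcrq.

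The members and gene lists were chosen with earlier results of these data known. The rule for names outside the set allowed the 3 highest members of each list, the member with the largest ratio at a mean of 10 TPM or more, and members under 1 TPM in both libraries; names outside it are marked as chosen after their values were seen. On simulated data for the comparison of replicate 2 with replicate 1, run on 13512 genes, 7 of 13312 unchanged genes, 80 of 100 changed 2.5-fold and 100 of 100 changed 4-fold were 2-fold apart. The simulated ratios were centred on their median, which those of the data were not. Their spread between libraries was preset and not taken from the data. These counts therefore give no error rate for the 2 libraries. The level of 1 member is not reported here. The series' junction and contig lists were not used here.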

Additional observations from a re-analysis of the deposited data

How the results depend on the processing

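No paired analysis was possible because the labels give 1 group, and no test was run. The order of complexes held with posterior means, where shares moved by less than the SD between the libraries, and without either replicate. FPKM and rescaled TPM differ from TPM by 1 factor per library, so they give the same shares by construction. With 2 libraries, leaving 1 out cannot move a mean share by more than the SD, so that limit is no check. In shares of expected counts, which favour long genes, complex V held 40.65%, IV 21.58%, I 18.21%, III 13.07% and II 6.49%. With protein-coding transcripts only, the shares were IV 33.55%, V 24.65%, I 21.9%, III 16.5% and II 3.4%, and with Ndufa4 and Ndufa4l2 moved, I had 18.81% and IV 31.61%. The number of detected members stayed within 1.5 times under every minimum tried.

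The spread within a complex depends on the lowest gene kept. With all members from 1 TPM up it was 185-fold in complex I, 2412.3-fold in IV and 1341.4-fold in V, and with coding transcripts only 29.1-fold in I, 76.5-fold in IV and 13.6-fold in V. Posterior means gave 68.4-fold in IV. Leaving out a replicate gave 14.1 to 16.2-fold in complex I, and a Cox6a1 share of 99.95% to 99.97%. Posterior means put Cox7b at 99.98% of its pair.

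The median log2 ratio of the members turned positive with FPKM (0.148), TMM (0.14) and size factors (0.144), as did that of all genes (0.001, 0.012 and 0.017). With no filter the median of all genes was 0.0, and the members' median lay -0.015 from it. Only 13512 of the 43346 genes reached a mean of 1 TPM, and the pseudocount of 1 pulls the ratios of the others towards 0. At a mean TPM of at least 10, 473 of the genes were 2-fold apart, a smaller number because fewer genes entered. No member was 2-fold apart under any alternative run. The ratio of nuclear to mitochondrial TPM differed 2.033-fold between the libraries, 1.688-fold without mt-Atp8 and mt-Nd4l and 1.714-fold in expected counts. After TMM the median of the complex II assembly factors was 0.047 and that of the complex III factors 0.233, opposite in sign to TPM. In a window of 100 bases before to 50 after the start, 3 members held a TATA box, and the other motif counts stayed within 1.5 times. Depth limits Cox8b and Cox6a2, which had 25 counts or fewer in both libraries. The coding-transcript, Ndufa4 and 1.3-fold alternatives were chosen after seeing the data.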
